A study of Mus musculus with 4 samples.

Results

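The 38 genes described here encode the proteins that hold, dock, fuse and recover synaptic vesicles. They were chosen by name from the gene column of the deposited table, and all 38 were found among its 23466 gene symbols. Where a gene had several transcript records, the record with the highest mean over the 4 libraries stood for it. Of the 38 genes, 24 had a single record and 14 had more. RNA was measured in frozen hippocampus at postnatal day 30 (P30) from 2 mutant and 2 wild-type samples of strain C57BL/6N. Mutants 38 and 39 are titled ko, and their condition reads conditional het:Atp6ap2Camk2aCre/0, a conditional Atp6ap2 allele with a Cre recombinase under the Camk2a promoter. Wild-types 11 and 73 have the condition wt, with no allele or Cre named. Camk2a-Cre acts mainly in forebrain excitatory neurons, so interneurons, glia and vessels in the tissue should keep the gene. Recombination was not measured here in any cell type.

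Synaptic vesicles are filled with transmitter by means of a proton gradient that the vacuolar proton pump sets up, and Atp6ap2 encodes an accessory subunit of that pump. A filled vesicle is tethered at the active zone by Rab3 and scaffold proteins, primed by Munc13 proteins and fused by the SNAREs Vamp2, Stx1a and Snap25. Synaptotagmin senses calcium and complexin holds the assembled SNAREs until it does. The membrane is then taken back by dynamin and its partners, and the ATPase Nsf with its SNAP cofactors takes the SNAREs apart for another round. In the hippocampus these messages come from principal neurons and interneurons alike.

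Values are scaled read equivalents, the deposited base sums divided by the 42 bases that a read contributed. Before scaling, the libraries held between 10023033 (wild-type 73) and 18339838 (wild-type 11) read equivalents. Defining markers of the labelled tissue were present. Prox1 of dentate granule cells and Grik4 of CA3 were each read in every library, with 1513 to 1702 and 722 to 896 read equivalents. Fibcd1 of CA1 had 1392 and 1600 in mutants, against 2243 and 2299 in wild-types (log2 fold change -0.60 ± 0.11 SE, limma adjusted p = 0.420), a larger difference than that of any of the 38 genes. It was the lowest of 8 CA1 markers, of which 6 had a log2 fold change below 0 and 2 above, with a median of -0.15 and a highest of 0.20. Wfs1 of CA1 overlapped, with 1069 and 2885 in mutants, against 1631 and 1786 in wild-types. The part of Fibcd1 in the results below was not tested. Atp6ap2 itself had 2551 and 2522 in mutants 38 and 39, against 2312 and 2637 in wild-types 11 and 73, so the groups overlapped. That value sums the whole transcript, with the RNA of cells without Cre, and does not show whether the allele was recombined. Choroid plexus RNA differed between libraries of the same group. The 17 choroid plexus markers summed to 127096 in mutant 38 and 7993 in mutant 39, against 76300 in wild-type 11 and 7711 in wild-type 73. Mutant 39 and wild-type 73 are called choroid-poor below, and mutant 38 and wild-type 11 choroid-rich. That split was made from the data and is not a group of the study.

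The question for these genes was whether their transcripts differed in hippocampus carrying the conditional Atp6ap2 allele. None of the 38 passed. With limma and Benjamini-Hochberg adjustment over all 18127 genes tested, 0 of 38 had an adjusted p under 0.05, beside 1 gene in the whole table (0.00552%). At an unadjusted p under 0.05, 1 member was higher and 0 were lower, against 2.18% higher, 1.75% lower and 3.94% in all among all genes. The 1 member is 2.63% of the list, a share near the background. That count moved when a library was left out, in fits with 1 library in a group, for which no share of all genes is given. Of the 38, 21 had a log2 fold change above 0 and 17 below, with a median of 0.01 beside 0.01 for all genes tested. The changes were small: 32 of 38 lay within 0.25 of 0 on the log2 scale, and the unadjusted 95% interval of 36 of 38 lay within 2-fold in both directions. The exceptions were Unc13c, whose interval ran from -0.0017 to 1.02, and Cplx3, from -1.22 to 1.03. A p that misses the threshold does not show that the groups were alike, and the intervals give the differences that remain possible. In the authors' deposited table, Vamp1 (p = 0.0170) and Unc13c (p = 0.0375) had a p under 0.05, 2 of 38 members (5.26%) beside 2.15% of all genes, and 0 of 38 remained after a Benjamini-Hochberg adjustment of that column over all records.

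**Figure D1:**
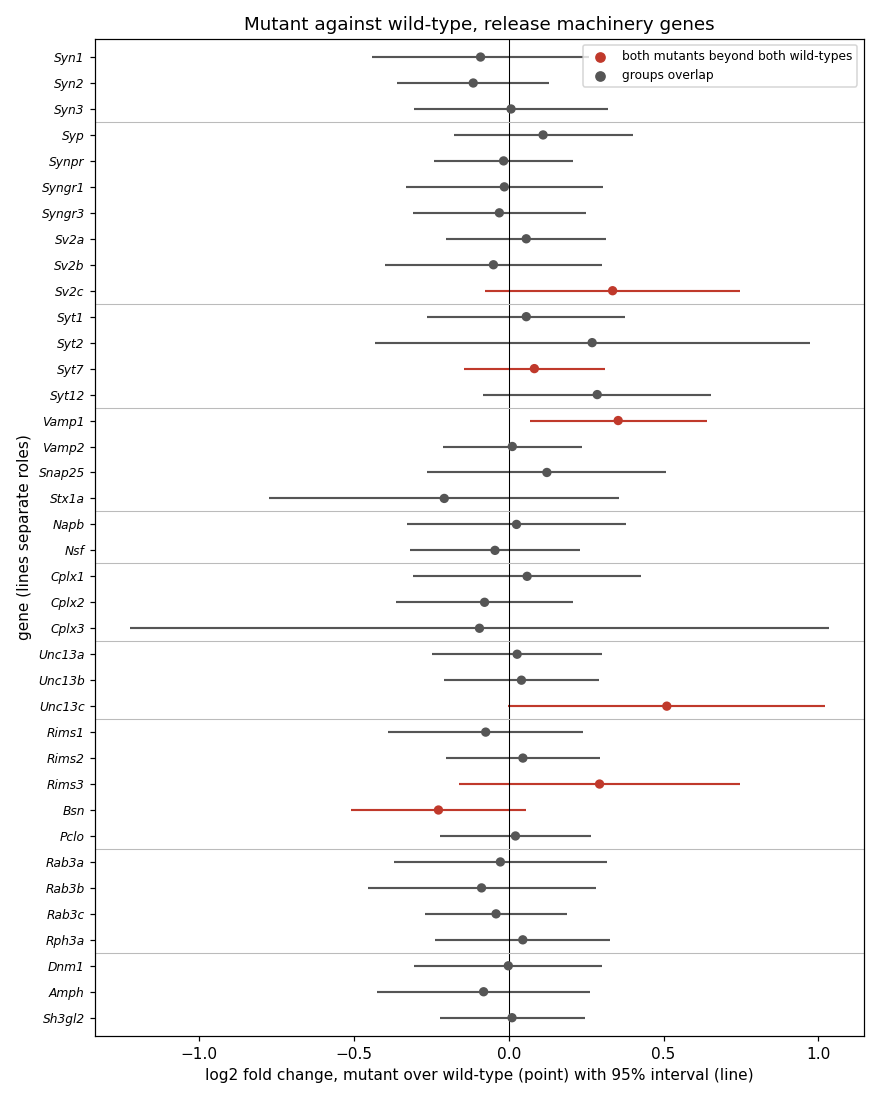
Log2 fold change of mutant over wild-type (x axis) for each of the 38 genes (y axis, grouped by role), with the point as the limma estimate and the line as its unadjusted 95% interval (2 libraries per group). Red marks the 6 genes with both mutants beyond both wild-types. The interval of Vamp1 alone lies off 0, from 0.07 to 0.64.

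Without a model, 5 members had both mutants above both wild-types, namely Vamp1, Unc13c, Sv2c, Rims3 and Syt7, and 1, Bsn, had both below. These are 13.2% and 2.63% of the list, against 16.8% and 16.5% of all genes tested, or 15.8% in all against 33.3%. With quantile normalization, 5 were above and 4 below, with no share of all genes given for that setting.

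The windows before the start sites of Vamp1, Unc13c and Bsn are shown because Vamp1 and Unc13c had the smallest p of the members on the higher side and Bsn the smallest on the lower side. They are 250 bases long, run up to the annotated start and come from RefSeq on build GRCm38.p6, which is not the build of the deposited values. The Vamp1 window is chr6:125215331-125215580 on the plus strand, that of Unc13c is chr9:73969038-73969287 on the minus strand and that of Bsn is chr9:108190384-108190633 on the minus strand. Capitals mark matches to 3 motifs searched on both strands, the cAMP response element TGACGTCA, the GC box GGGCGG and the core of the nuclear respiratory factor 1 site, CGCATGCG.
Vamp1: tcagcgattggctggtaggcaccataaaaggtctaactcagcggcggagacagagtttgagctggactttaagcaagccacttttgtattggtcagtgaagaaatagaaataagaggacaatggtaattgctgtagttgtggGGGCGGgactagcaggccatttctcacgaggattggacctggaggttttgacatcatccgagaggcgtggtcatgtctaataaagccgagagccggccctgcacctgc
Unc13c: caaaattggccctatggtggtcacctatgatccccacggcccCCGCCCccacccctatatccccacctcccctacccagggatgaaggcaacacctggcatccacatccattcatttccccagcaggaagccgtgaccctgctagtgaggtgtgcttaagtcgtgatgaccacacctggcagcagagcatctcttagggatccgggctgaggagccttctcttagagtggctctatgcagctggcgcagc
Bsn: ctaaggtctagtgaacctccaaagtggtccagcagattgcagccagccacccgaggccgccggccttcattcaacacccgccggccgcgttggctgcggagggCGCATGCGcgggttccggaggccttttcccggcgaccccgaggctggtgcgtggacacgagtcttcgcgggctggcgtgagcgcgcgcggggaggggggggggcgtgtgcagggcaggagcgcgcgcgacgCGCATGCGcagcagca
Vamp1 and Unc13c each held 1 GC box, and Bsn held 2 matches to the nuclear respiratory factor 1 core. The matches do not overlap each other. Windows were found for 31 of the 38 members. A GC box was in a window of 22 of these 31, and in 32.7% of all 32851 windows. The cAMP response element was in 2 of 31, Syn1 and Sh3gl2, and in 1.55% of windows. The nuclear respiratory factor 1 core was in 2 of 31, Bsn and Syn1, and in 1.55% of windows too. Members were counted as genes with a match in any of their windows, while the percentages count single windows. The shares are therefore in unlike units and do not show an excess. A match describes letters and not a bound site.

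Vamp1, the synaptobrevin of fast-firing neurons and motor terminals, led the SNAREs. It had 1758 and 2054 read equivalents in mutants 38 and 39, against 1395 and 1585 in wild-types 11 and 73. Both mutants were above both wild-types, with means of 1906 ± 209.6 in mutants and 1490 ± 134 in wild-types (SD, n = 2 each). The log2 fold change was 0.35 ± 0.12 (SE; limma adjusted p = 0.989), the smallest p of the 38 and the only one under 0.05 before adjustment. Its other transcript record, which shares most of its reads, had 0.37. Vamp2, the main vesicle SNARE of forebrain synapses, had 3579 and 3838 in mutants, against 3649 and 3705 in wild-types. The groups of Vamp2 overlapped, and its log2 fold change was 0.01 (95% interval -0.21 to 0.24). The log2 ratio of Vamp1 to Vamp2 was -1.03 and -0.90 in mutants, against -1.39 and -1.22 in wild-types, a difference of 0.34 with both mutants above. With Vamp2 near level, that ratio mostly restates the Vamp1 difference. Other paralogue ratios were also taken. Those of Unc13c to Unc13a and Rims3 to Rims1 separated, while others, such as Syn2 to Syn1 and Cplx2 to Cplx1, overlapped between groups.

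Snap25, the plasma membrane SNARE with a pair of fusion helices, had the highest level per base of the 38. It had 20572 and 24273 read equivalents in mutants, against 18064 and 23307 in wild-types. Mutant 39 and wild-type 73 were its high libraries, so the groups overlapped (log2 fold change 0.12 ± 0.16 SE). Stx1a, the plasma membrane syntaxin, had 835 and 1261 in mutants, against 978 and 1438 in wild-types. It overlapped too, and the same libraries, mutant 39 and wild-type 73, were high (log2 fold change -0.21 ± 0.24 SE). Of the SNARE-separating proteins, Nsf had 16711 and 18405 in mutants, against 17709 and 18474 in wild-types. Its cofactor Napb had 7681 and 9262 in mutants, against 7403 and 9283 in wild-types. The groups of both genes overlapped, with log2 fold changes of -0.04 ± 0.12 and 0.02 ± 0.15 (SE).

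Among the priming factors, Unc13c (Munc13-3, best known from cerebellum) had the largest fold change of the 38. It had 515 and 648 read equivalents in mutants, against 329 and 499 in wild-types. Mutant 38 lay just above wild-type 73, so the separation rests mainly on the low value of wild-type 11. On the log2 scale the difference was 0.51 ± 0.22 (SE; limma adjusted p = 0.989), and 0.21 without wild-type 11. Unc13a (Munc13-1, the main priming factor of excitatory hippocampal synapses) had 6080 and 7229 in mutants, against 6504 and 6509 in wild-types. Unc13b (Munc13-2) had 1088 and 1204 in mutants, against 1140 and 1085 in wild-types. Both overlapped, with log2 fold changes of 0.03 and 0.04.

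At the active zone, the scaffold gene Bsn (bassoon) had 6098 and 6594 read equivalents in mutants, against 6810 and 8091 in wild-types. Both mutants were below both wild-types, with means of 6346 ± 350.1 in mutants and 7450 ± 906 in wild-types (SD, n = 2 each). The log2 fold change was -0.23 ± 0.12 (SE; limma adjusted p = 0.989), and -0.10 without wild-type 73. Its relative Pclo (piccolo) had 8107 and 8386 in mutants, against 7782 and 8479 in wild-types, and overlapped. The log2 ratio of Bsn to Pclo was -0.41 and -0.35 in mutants, against -0.19 and -0.07 in wild-types. With Pclo near level, that ratio mostly restates the Bsn difference. Rims3, a short member of the RIM scaffold family, had 212 and 194 in mutants, against 145 and 188 in wild-types. Both mutants were above, mutant 39 only just so over wild-type 73 (log2 fold change 0.29 ± 0.19 SE, limma adjusted p = 0.989). The log2 fold change of Rims3 was 0.10 without wild-type 11 and 0.48 without wild-type 73. Rims1 and Rims2, the long RIM proteins that bind Rab3, overlapped between groups and had log2 fold changes of -0.07 and 0.05.

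The 4 synaptotagmins among the 38 had log2 fold changes above 0, without a member that passed. Without mutant 39, those of Syt1 and Syt2 were -0.0058 and -0.22, and without wild-type 11 that of Syt1 was -0.08. Synaptotagmins outside the 38 went both ways, with Syt17 at -0.47 and Syt10 at -0.38, against Syt11 at 0.20 and Syt13 at 0.11. Syt1, the calcium sensor of fast release, had 17465 and 19044 read equivalents in mutants, against 15963 and 19264 in wild-types (log2 fold change 0.06 ± 0.14 SE). Syt7, a sensor of slow and facilitated release, had 4927 and 5250 in mutants, against 4754 and 4852 in wild-types. Both mutants were above by a small margin, and the log2 fold change was 0.08 ± 0.10 (SE). Syt12, which lacks the usual calcium-binding residues, had 606 and 724 in mutants, against 609 and 485 in wild-types. Mutant 38 lay just below wild-type 11, so the groups overlapped (log2 fold change 0.29 ± 0.16 SE). Without wild-type 73, its low library, the value was 0.12, without mutant 39 it was 0.16, and without wild-type 11 it was 0.45. Syt2, the fast sensor of parvalbumin interneurons and hindbrain synapses, had 254 and 504 in mutants, against 282 and 312 in wild-types. Mutant 39 was the highest library and mutant 38 the lowest, so the groups overlapped (log2 fold change 0.27 ± 0.30 SE).

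Among vesicle membrane proteins, Sv2c, the SV2 form known from basal ganglia, had 417 and 435 read equivalents in mutants, against 395 and 288 in wild-types. Both mutants were above, and wild-type 73 was the low library (log2 fold change 0.34 ± 0.17 SE, limma adjusted p = 0.989). The log2 fold change of Sv2c was 0.11 without wild-type 73. Sv2a and Sv2b, the forms of most forebrain synapses, overlapped between groups at 0.06 and -0.05. Syp (synaptophysin), an abundant vesicle protein, had 14959 and 17099 in mutants, against 15410 and 14235 in wild-types, and overlapped (0.11 ± 0.12 SE). Its relative Synpr (synaptoporin), known from mossy fibre terminals of granule cells, had 2241 and 2086 in mutants, against 2189 and 2186 in wild-types. The 4 values of Synpr lay close together, with a highest-to-lowest ratio of 1.07. Syngr1 and Syngr3, the synaptogyrins, overlapped at -0.01 and -0.03.

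Of the synapsins, which tie vesicles into the reserve pool, Syn2 had 5384 and 5866 read equivalents in mutants, against 5859 and 6321 in wild-types. The groups overlapped by a few reads between mutant 39 and wild-type 11 (log2 fold change -0.11 ± 0.10 SE, limma adjusted p = 0.989). A second Syn2 record, NM_001111015, had 2884 and 3166 in mutants, against 3164 and 4137 in wild-types, a log2 fold change of -0.26 and a p of 0.0700 in the authors' deposited table. Syn1 and Syn3 overlapped at -0.09 and 0.01. Of the complexins, Cplx2, the main form of excitatory neurons, had 16765 and 16144 in mutants, against 16233 and 18583 in wild-types (log2 fold change -0.08 ± 0.12 SE). Cplx1, more common in interneurons, overlapped at 0.06. Cplx3, the complexin of retinal ribbon synapses, was the lowest of the 38 and is described with the library pairs below.

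Among the Rab3 proteins, small GTPases on the vesicle, Rab3b had 450 and 564 read equivalents in mutants, against 493 and 581 in wild-types. The groups overlapped (log2 fold change -0.09 ± 0.16 SE), as did those of Rab3a at -0.03, Rab3c at -0.04 and the Rab3 effector Rph3a (rabphilin) at 0.05. Among the genes of vesicle recovery, Amph (amphiphysin), which recruits dynamin, had 3968 and 4209 in mutants, against 3749 and 4987 in wild-types. Wild-type 73 was high and wild-type 11 low, so the mutants lay between them (log2 fold change -0.08 ± 0.15 SE). Dnm1, the neuronal dynamin, and Sh3gl2, endophilin A1, had log2 fold changes of -0.0015 and 0.01.

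The genes varied between libraries in another way than between the groups. For 25 of 38 members, both choroid-poor libraries lay above both choroid-rich ones, and for 1, Synpr, below. That is 65.8% and 2.63% of the members, against 20% and 20.6% of all genes tested. The split was drawn from these libraries, so no test is given. All genes of the Rab3, SNARE disassembly and endocytosis groups were among the 25, as were Syn1, Syn2, Snap25, Vamp2, Stx1a, Syt1 and Cplx1. The members' median difference, choroid-poor minus choroid-rich, was 0.19 on the log2 scale, beside -0.01 for all genes. Wild-type 73 was the highest library for 20 members and mutant 39 for 15, while wild-type 11 was the lowest for 18 and mutant 38 for 14.

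**Figure D2:**
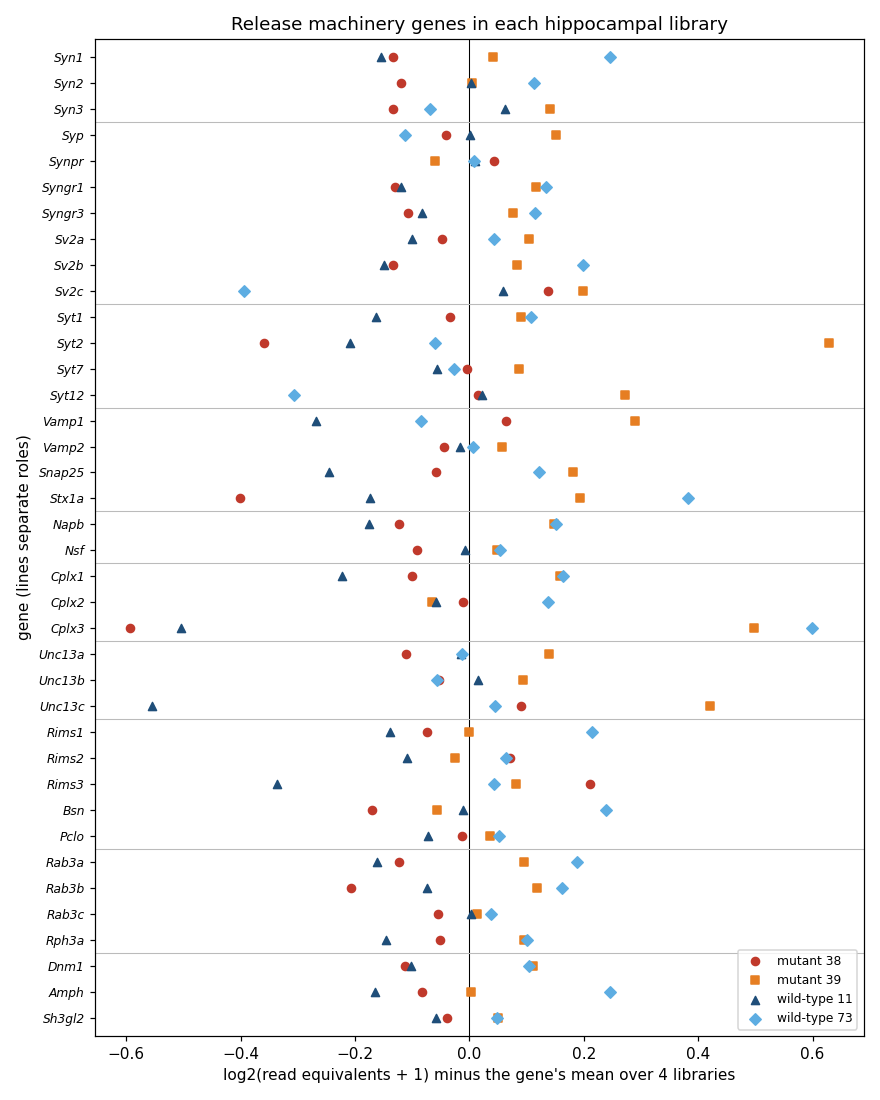
Log2(read equivalents + 1) of each gene (y axis, grouped by role) in each of the 4 libraries, minus the gene's mean over them (x axis). Mutant 39 (squares) and wild-type 73 (diamonds) lie right of mutant 38 (circles) and wild-type 11 (triangles) for 25 of the 38 genes.

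The largest such difference was that of Cplx3, which had 94.5 in mutant 39 and 101 in wild-type 73, against 43.8 in mutant 38 and 46.7 in wild-type 11. Those values rest on 52 to 105 reads per library. Stx1a followed at 0.58 and Syt2 at 0.57 on the log2 scale. Sv2c ran the other way at -0.20, with wild-type 73 as its lowest library.

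Some other neuronal lists moved with these libraries and others did not. The 16 pan-neuronal markers, among them Rbfox3, Map2 and Nefl, summed to 99638 in mutant 38 and 110335 in mutant 39, against 93610 in wild-type 11 and 114710 in wild-type 73, and 11 of 16 were higher in both choroid-poor libraries. The summed level of the 38 genes was 202853 and 225608 in mutants 38 and 39, against 199066 and 227327 in wild-types 11 and 73. Divided by the pan-neuronal sum, that is 2.04 and 2.04 in mutants, against 2.13 and 1.98 in wild-types, and the choroid-poor libraries do not stand apart. Divided by the sum of the further release cycle genes named below, it is 1.16 and 1.19 in mutants, against 1.15 and 1.20 in wild-types. There the choroid-poor libraries are still the higher. The cause of the split was not tested. Interneuron markers summed to 15840 and 17360 in mutants, against 14968 and 17653 in wild-types, with 6 of 12 higher in both choroid-poor libraries. Of the 8 CA1 markers, 4 were higher and 0 lower in both choroid-poor libraries, with sums of 12413 and 18194 in mutants, against 14995 and 17682 in wild-types. Of the 8 CA3 and CA2 markers, 1 was higher and 3 were lower, with sums of 5349 and 5419 in mutants, against 5100 and 4963 in wild-types. Of the 9 dentate granule cell markers, 2 were higher and 2 lower. The CA3 and dentate lists thus did not share the split seen in the members.

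The myelinating oligodendrocyte list moved with the groups, and the dentate granule cell list did so less clearly. Markers of myelinating oligodendrocytes summed to 121911 and 107987 in mutants, against 99790 and 70619 in wild-types. Both mutants were above both wild-types for 13 of 15, and the log2 fold change was above 0 for 15 of 15, with a median of 0.45. Among all genes tested, 16.8% had both mutants above. In limma, 0 of 15 had an adjusted p under 0.05 and 10 had an unadjusted p under it, all higher. The share of all genes tested that was higher at that unadjusted p was 2.18%. The dentate granule cell markers summed to 8993 and 8266 in mutants, against 9560 and 10326 in wild-types. Their log2 fold change was below 0 for 8 of 9, with a median of -0.27, and both mutants were below both wild-types for 2 of 9. That separation is near the 16.5% of all genes tested with both mutants below. None of these lists had a marker at 0 in all libraries. The choroid plexus markers themselves held 0.821% of the summed signal in mutant 38 and 0.498% in wild-type 11. In bulk tissue, fewer neurons and less RNA per neuron cannot be told apart, and the part of tissue makeup in these differences was not tested.

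**Figure D3:**
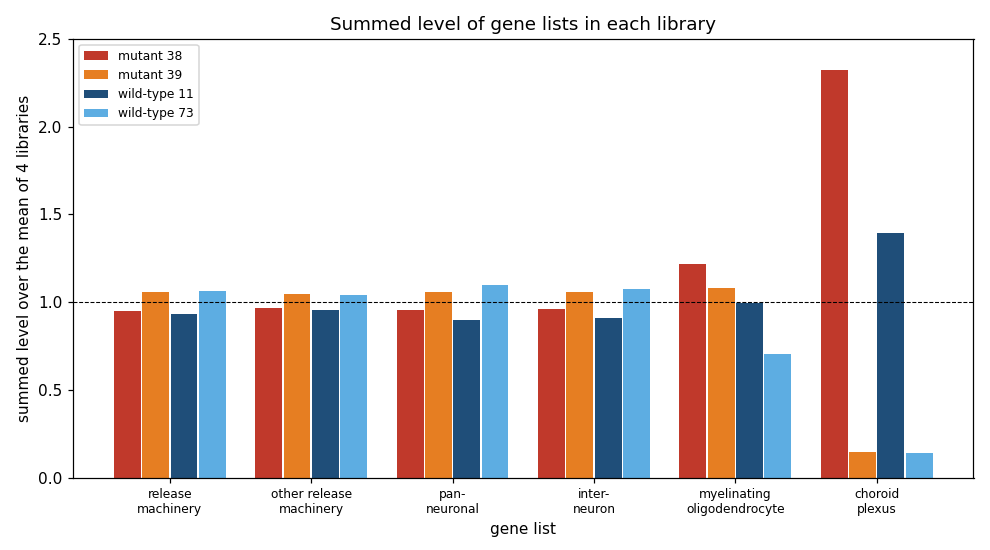
Summed level of 6 gene lists (x axis) in each library, divided by the mean of the 4 libraries (y axis, dashed line at 1, bars without error because each is a single library). The release machinery bars stand at 0.949 and 1.06 for mutants 38 and 39, against 0.931 and 1.06 for wild-types 11 and 73.

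Within pairs of like choroid plexus level, the members often differed in sign. For 21 of 38 genes the difference of mutant 38 from wild-type 11 and that of mutant 39 from wild-type 73 had opposite signs, and for 17 the same sign. Vamp1 was alike in both pairs, at 0.33 in the choroid-rich pair and 0.37 in the choroid-poor pair. Unc13c had 0.64 and 0.38, and Bsn had -0.16 and -0.30, in the same order of pairs. Rims3 had 0.55 in the choroid-rich pair and 0.04 in the choroid-poor pair, while Sv2c had 0.08 and 0.59 in that order. The shared sign of genes with both mutants beyond both wild-types follows from that separation and is no further check.

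**Figure D4:**
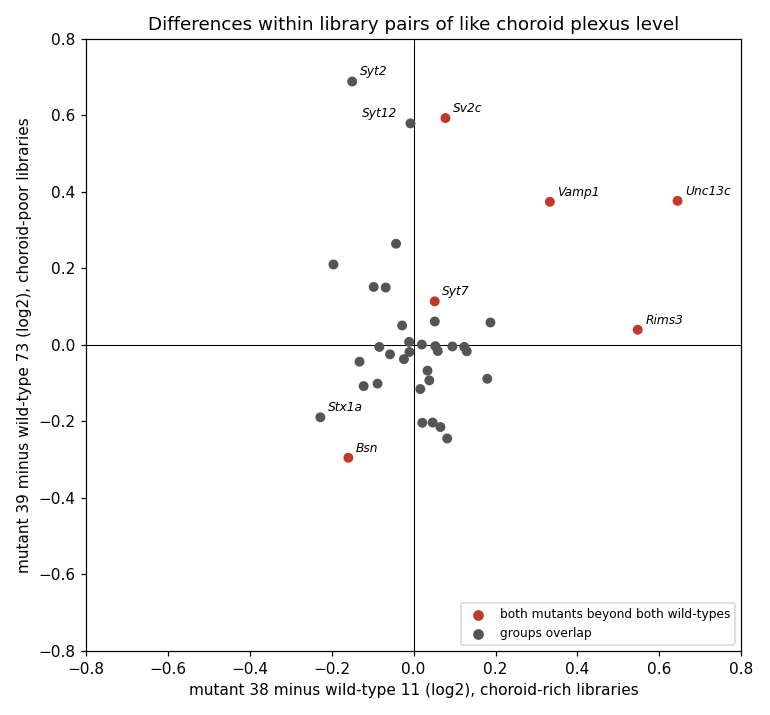
Log2 difference of mutant 38 from wild-type 11 (x axis) against that of mutant 39 from wild-type 73 (y axis), a point per gene, with red for both mutants beyond both wild-types. Vamp1 and Unc13c lie above 0.3 on both axes, and 21 of 38 genes lie in the quadrants of opposite sign.

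Levels between genes were compared as mean scaled read depth per transcript base, with GENCODE M21 lengths matched by RefSeq accession for all 38. Where several GENCODE transcripts matched, the longest was taken, and its length may differ from that of the counted record. A Syt7 record given 1344 bases, for one, had higher values in every library than a Syt7 record given 1605. Levels per base and their order are therefore approximate. Snap25 stood first with 428 (358.5 to 482 over the 4 libraries), followed by Syp with 250.1 (231 to 277), Nsf with 199 and Rab3a with 178. Cplx3 at 1.05, Sv2c at 1.77, Unc13c at 3.15 and Syt2 at 4.19 stood last. The list thus spans more than 2 orders of magnitude. In the order of levels, 27 of 37 neighbouring pairs had overlapping ranges over the libraries and 10 did not. Snap25 and Syp stood clear of what followed. The ranges of Nsf and Rab3a overlapped, yet Nsf was the higher within each library, at 186 and 205 in mutants 38 and 39, against 163 and 189 for Rab3a. In wild-types 11 and 73 Nsf had 198 and 206, against 158 and 202 for Rab3a. Overlap of ranges thus does not show that a pair lacked a steady order. Vamp2 had 70.3, well below its partner Snap25. Paralogues differed within families, with Syt1 at 156, Syt7 at 122, Syt12 at 7.11 and Syt2 at 4.19, and with Unc13a at 27.0, Unc13b at 9.42 and Unc13c at 3.15.

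**Figure D5:**
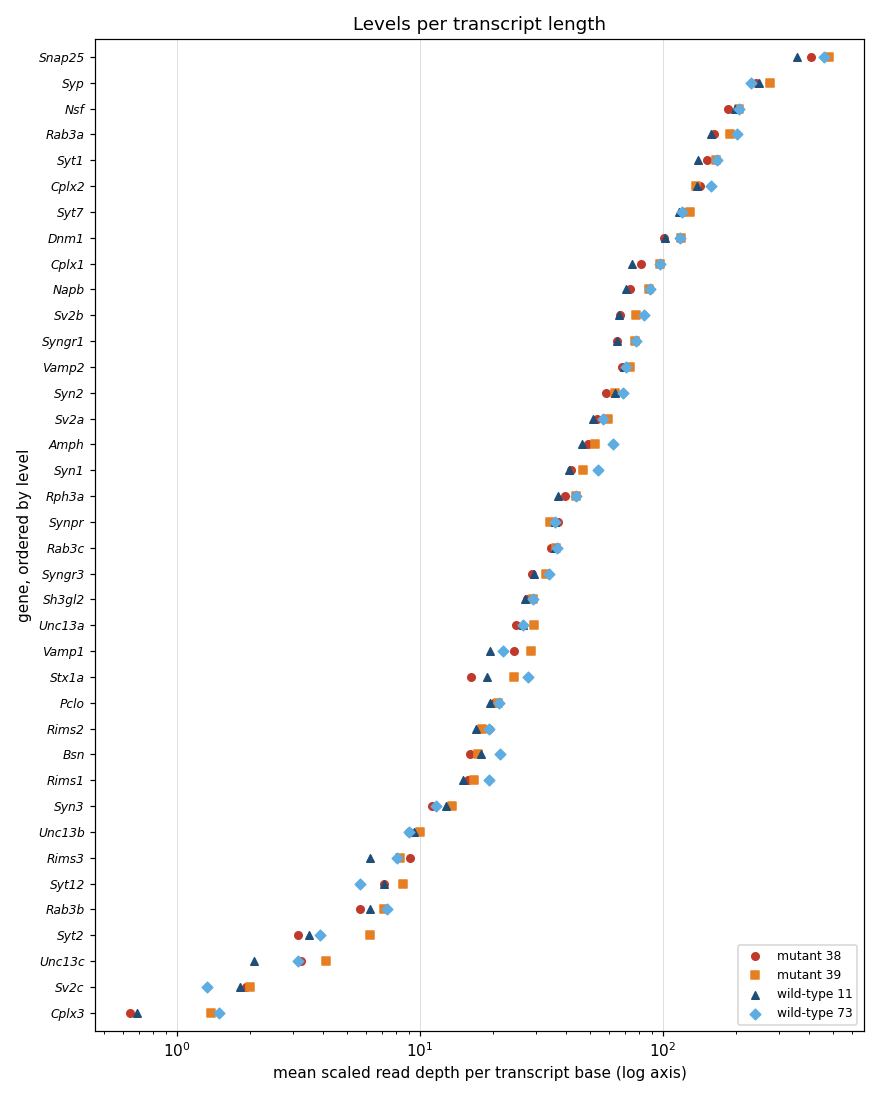
Mean scaled read depth per transcript base (x axis, log scale) of each gene (y axis, ordered by mean level) in each of the 4 libraries. Snap25 is highest at a mean of 428 and Cplx3 lowest at 1.05, and the 4 libraries of a gene lie close beside the span between genes.

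A further 69 genes of the release cycle were listed as the rest of the pathway, of which 68 were tested and 0 passed with limma. The one not tested, Cplx4, was at 0 in 3 libraries. At an unadjusted p under 0.05 there was 1 higher and 2 lower, beside 2.18% and 1.75% of all genes, and the median log2 fold change was -0.02. The higher one was Slc17a6, the vesicular glutamate transporter of thalamus and other subcortical neurons, with 954 and 783 read equivalents in mutants, against 380 and 408 in wild-types (log2 fold change 1.13 ± 0.14 SE, limma adjusted p = 0.123). The p of Slc17a6 in the authors' deposited table was 9.21e-10, and 1.88e-06 after a Benjamini-Hochberg adjustment of that column over all records. Thalamus markers as a list, Slc17a6 among them, summed to 6697 in mutant 38 and 2769 in mutant 39, against 2871 and 2940 in wild-types, so mutant 38 alone was high, and their part in the Slc17a6 difference was not tested. The lower ones were Rab3d, a Rab3 form of secretory cells, with 165 and 185 in mutants, against 259 and 273 in wild-types (log2 fold change -0.60 ± 0.16 SE, limma adjusted p = 0.989), and Doc2b, a calcium sensor of spontaneous release, with 675 and 854 in mutants, against 984 and 993 in wild-types (-0.38 ± 0.14 SE). Next by p on the higher side came Scamp1 (0.26), a vesicle carrier protein, Picalm (0.24), a clathrin adaptor, and Cask (0.19), a scaffold kinase. Next on the lower side came Rabac1 (-0.33), which binds Rab3, and Syt17 (-0.47).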

How the data were processed

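RNA from 2 mutant and 2 wild-type hippocampi was ribosome-depleted, and the dUTP method kept the strand, per the labels' protocols. Nothing in the labels says that samples are separate animals, so the spread behind a p-value may be technical. The submitters' processing notes name GSNAP, DESeq2 and build mm9 without roles, and the sources used here do not give the read counter or annotation. The deposited table has 31315 transcript records. Its signal is, from the values, aligned bases per transcript divided by the authors with a factor per library, not by length. In each library 100% of values were whole multiples of a step (within 0.05 of a step), and 42 steps made a read. Transcripts, and paralogues of like sequence, can share reads. The deposited p-value column names DESeq and does not say whether it was adjusted.

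Values were divided by 42. A gene was tested if 2 or more libraries held at least 1 read equivalent. limma 3.58.1 in R 4.3.3 (variance trend, two-sided, Benjamini-Hochberg at 0.05) was fitted to log2(read equivalents + 1), which understates changes of low genes, and was checked on simulated data. Python 3.11.15 read the table. The signal is not a read count, so no count test was run. For 2 against 2 libraries the smallest exact permutation p is 0.333. Full values were given for members with an unadjusted p under 0.05 or separated groups, the smallest p of each role, and the highest and lowest level. Further members have values so that families read together. Of the other release genes, the 4 with the smallest p in each direction were named. Members and lists were chosen with earlier results of these data known. Alternatives covered pseudocount, filter, scaling, unit, variance prior, records, a choroid plexus covariate and leaving out each library.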

Additional observations from a re-analysis of the deposited data

How the results depend on the processing

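The count of members with an adjusted p under 0.05 stayed at 0 under all 15 alternatives, and the lowest adjusted p of a member was 0.0572, for Unc13c with a choroid plexus covariate, a fit with 1 residual degree of freedom. The count at an unadjusted p under 0.05 was 1 with all libraries. It was 3 with quantile normalization, 0 without a variance trend and 4 with the choroid plexus covariate. It also moved over the fits that left out a library, each with 1 library in a group. Shares of all genes for this count and for separated groups are given with the main fit only. Counts under other settings are thus no result about the members. The count of members with separated groups was 6 (5 above, 1 below), 9 with quantile normalization (5 above, 4 below), and 19 to 28 without 1 library, where 2 libraries stand against 1 and separation is easier. The members' median log2 fold change ran from -0.07 without mutant 39 to 0.11 without mutant 38, within the spread of 0.12 between libraries. It was -0.01 with quantile normalization. Of the 38 members, 10 kept their direction under all 15 alternatives, Vamp1 (0.24 to 0.47), Unc13c (0.21 to 0.81) and Bsn (-0.35 to -0.10) among them, and 28 changed it in at least 1. The 10 include the 6 members with separated groups in the main fit. For those 6, leaving out 1 library cannot change the direction, so their kept direction in those fits is no further check. Slc17a6 passed with a robust variance prior and with the choroid plexus covariate. The count of members higher in both choroid-poor libraries was 25, 24 with median-of-ratios rescaling and 18 with quantile normalization (47.4%, beside 22.2% of all genes), both chosen after seeing the data. No paired analysis was possible because the groups share no replicate numbers. The depth of wild-type 73, 10023033 read equivalents, was the lowest and limits genes with few reads there. Cplx3 had few reads in every library, with 65 there, 52 in mutant 38, 105 in mutant 39 and 56 in wild-type 11.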
